A study of Danio rerio with 4 samples.

Results

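Messenger RNA levels of 8 pronephros genes were examined in whole zebrafish embryos (Danio rerio) after a double rbm14 knockdown. The 8 genes are pax8, osr1, hnf1ba, wt1a, wt1b, cdh17, slc20a1a and atp1a1a.4, chosen by their symbols among 28697 gene symbols in the deposited tables. All embryos were injected at the one-cell stage with 2 nl of morpholino, an antisense oligomer that interferes with a target mRNA, together with 300 pg of GFP mRNA as a marker of injection. Control embryos received 8 ng of a control morpholino, and rbm14 embryos received 4 ng against rbm14a plus 4 ng against rbm14b, the zebrafish genes for the RNA-binding protein Rbm14. Embryos were kept at 28.5 °C and collected at 10 or 24 hours post fertilization (hpf), 50 per pool. There was 1 library for each treatment and stage and no uninjected or rescued group. No strain is named in the labels. No difference below therefore has a replicate check or a p-value. In whole-embryo pools, fewer kidney cells and less RNA per cell cannot be told apart.

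The pronephros is the embryonic kidney of fish. It arises from intermediate mesoderm, a strip beside the somites in which regulators such as Osr1 and Pax8 act, and then forms a filter lined by podocytes and a pair of tubules. Wt1 proteins specify podocytes, hnf1ba helps to pattern the tubule into segments, and the tubule epithelium carries adhesion proteins, ion pumps and transporters in its membranes. Several of these genes also act elsewhere: osr1 in lateral plate mesoderm and endoderm, hnf1ba in hindbrain and endoderm, and pax8 in the otic region and brain.

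The deposited values are in TPM, an abundance per transcript length scaled to the same total in each library. Sequencing depth is therefore unknown and no counting interval can be given. Between 6305 and 8866 genes stood at 5 TPM or more in a library. Ratios were taken on the log2(TPM + 0.5) scale after each pair of libraries had been brought to a common scale, and they understate differences of low genes. The shift removed, as the log2 of rbm14 over control, was −0.25 at 10 hpf and 0.64 at 24 hpf. As the log2 of 24 over 10 hpf it was −0.52 in controls and 0.37 with rbm14 morpholinos. A gene is called past the size rule when its ratio is at least 2-fold and its higher value is at least 5 TPM. The targeted genes remained detected: at 24 hpf rbm14a had 70.5 TPM in control and 82.7 TPM in rbm14 embryos, and rbm14b 21.0 and 28.2 TPM. These mRNA levels do not measure the knockdown.

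The 8 genes fell into contrasting patterns across development in the control embryos. The mesodermal regulator osr1 and the tubule regulator hnf1ba were high at 10 hpf and lower at 24 hpf. The regulator pax8, the adhesion gene cdh17, the phosphate transporter gene slc20a1a and the sodium pump gene atp1a1a.4 were low at 10 hpf and higher at 24 hpf. The podocyte regulators wt1a and wt1b stayed under 1 TPM in every library.

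**Figure D1:**
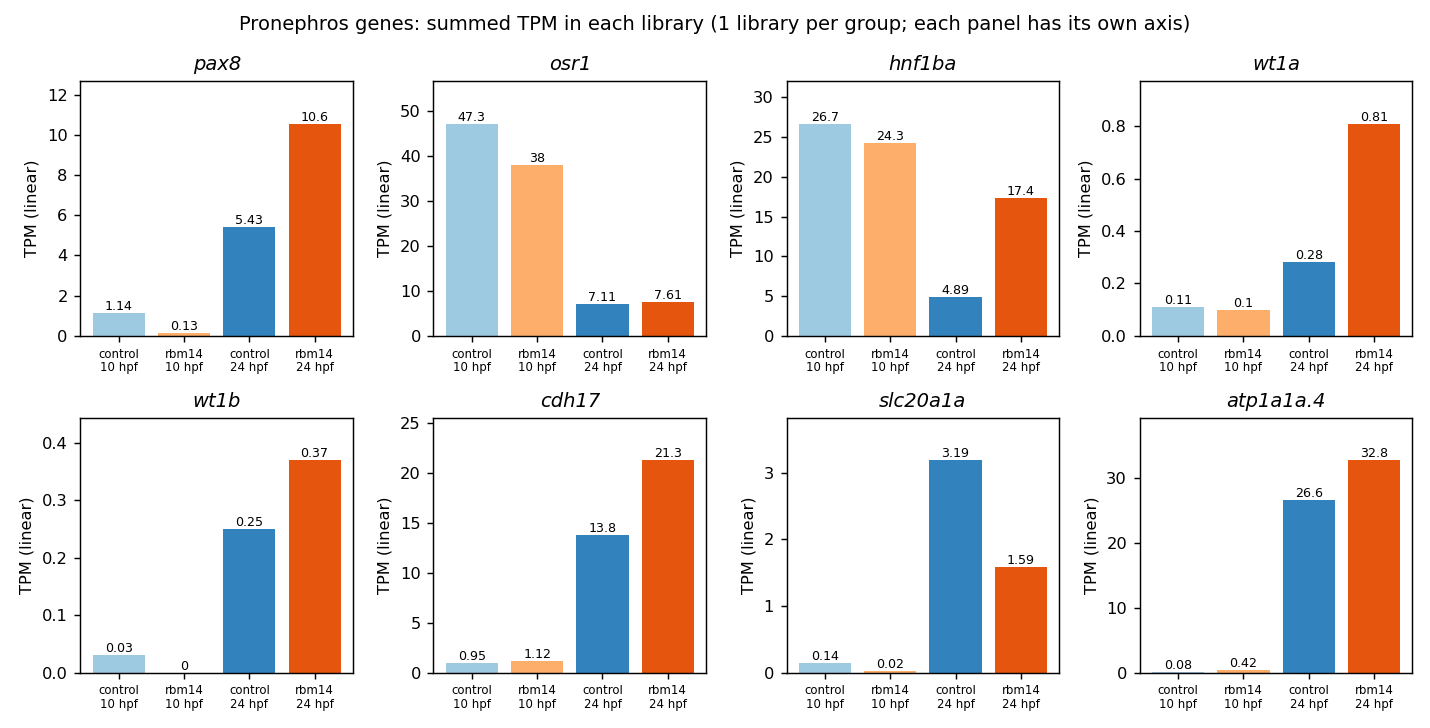
TPM of each of the 8 genes (linear axis from 0, one scale per panel) in the control and rbm14 morpholino libraries at 10 and 24 hpf, with the value above each bar and 1 library per bar. In control embryos osr1 (47.3 and 7.11 TPM) and hnf1ba (26.7 and 4.89 TPM) were lower at 24 hpf than at 10 hpf, whereas cdh17 (0.95 and 13.8 TPM) and atp1a1a.4 (0.08 and 26.6 TPM) were higher.

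At 10 hpf the order of TPM levels in the control library was osr1 at 47.3, hnf1ba at 26.7, pax8 at 1.14, cdh17 at 0.95, slc20a1a at 0.14, wt1a at 0.11, atp1a1a.4 at 0.08 and wt1b at 0.03 TPM. Only osr1 and hnf1ba of the 8 reached 5 TPM in either 10 hpf library, and osr1 stood above 93.3% of all gene symbols in the control library. By 24 hpf the control order had turned to atp1a1a.4 at 26.6, cdh17 at 13.8, osr1 at 7.11, pax8 at 5.43, hnf1ba at 4.89, slc20a1a at 3.19, wt1a at 0.28 and wt1b at 0.25 TPM. With 1 pool per group there is no spread by which to separate neighbours in either order, and pax8 and hnf1ba at 24 hpf lay within 1 TPM of each other.

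The sodium pump gene atp1a1a.4, which encodes a catalytic alpha subunit of the Na,K-ATPase, was listed at 0.08 TPM at 10 hpf and 26.6 TPM at 24 hpf in controls, and at 0.42 and 32.8 TPM with rbm14 morpholinos. Both 24 hpf libraries were far above both 10 hpf libraries. The stage ratio was 5.84 on the log2 scale in controls and 4.91 with rbm14 morpholinos, and since the 10 hpf values are near 0 it depends on the pseudocount (2.86 to 7.58 over the settings tried in controls). The gene cdh17 encodes a cadherin that marks the pronephric tubule and duct. It stood at 0.95 and 13.8 TPM in controls (13.2-fold higher at 24 hpf) and at 1.12 and 21.3 TPM with rbm14 morpholinos (10.9-fold). All but 1.16% of its TPM in the 24 hpf control library, and all of it in the other libraries, came from 1 of its 2 annotated transcripts.

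The paired-box regulator gene pax8 stood at 1.14 and 5.43 TPM in the 10 and 24 hpf controls (4.83-fold higher) and at 0.13 and 10.6 TPM with rbm14 morpholinos (15.1-fold). With a pseudocount of 5 TPM its control stage ratio was 0.95 on the log2 scale, under 2-fold. Of the 4 libraries, the rbm14 library was the lowest at 10 hpf and the highest at 24 hpf. The transporter gene slc20a1a, a marker of the proximal convoluted segment, stood at 0.14 and 3.19 TPM in controls and at 0.02 and 1.59 TPM with rbm14 morpholinos. It did not reach 5 TPM in any library, so it is outside the size rule, and its stage ratio was 2.81 in controls and 1.86 with rbm14 morpholinos on the log2 scale.

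The zinc finger gene osr1, an early regulator of intermediate mesoderm, stood at 47.3 and 7.11 TPM in controls (4.42-fold lower at 24 hpf) and at 38.0 and 7.61 TPM with rbm14 morpholinos (6.05-fold lower). Both treatments had it high at 10 hpf and low at 24 hpf. The homeobox gene hnf1ba stood at 26.7 and 4.89 TPM in controls (3.58-fold lower) and at 24.3 and 17.4 TPM with rbm14 morpholinos (1.77-fold lower, not past the size rule). Its 24 hpf rbm14 value lay between the 24 hpf control value and both 10 hpf values. With median-of-ratios scaling the hnf1ba stage ratio with rbm14 morpholinos was −1.51 in place of −0.83 and past the rule.

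Over the 8 genes, 3 were past the size rule as higher at 24 hpf in controls (pax8, cdh17 and atp1a1a.4) and 2 as lower (osr1 and hnf1ba), while the other 3 did not reach 5 TPM. Among all 8784 genes at 5 TPM or more, 29.6% were past it as higher and 23.1% as lower, 52.7% in all. With rbm14 morpholinos the same 3 were past it as higher and osr1 as lower, against 35.4% and 22.1% of 9551 genes, 57.4% in all. A difference of 2-fold between the stages was thus common across genes. The control and rbm14 stage ratios share no library. Their difference (rbm14 minus control, log2) was 1.65 for pax8, 1.01 for hnf1ba, −0.28 for cdh17, −0.45 for osr1, −0.93 for atp1a1a.4 and −0.95 for slc20a1a. Of 10053 genes at 5 TPM or more in any library, 4.15% had a higher difference than pax8 and 13.2% a higher one than hnf1ba, while 87.9% had a higher one than slc20a1a. Without rescaling the difference was 2.28 for pax8 and 1.87 for hnf1ba, with 5.39% and 11.5% of genes above them, and −0.52 for slc20a1a, and those of cdh17 (0.45) and osr1 (0.40) had the other sign. The differences of genes with values near 0 depend on the pseudocount. With 5 TPM the difference was 0.52 for pax8, −0.24 for atp1a1a.4 and 0.03 for cdh17, and with 0.1 TPM it was 2.59, −1.93 and −0.44, while that of hnf1ba was 0.65 and 1.06. That of slc20a1a, which is not itself among the 10053 genes, was −0.44 with 5 TPM and −0.57 with 0.1 TPM.

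**Figure D2:**
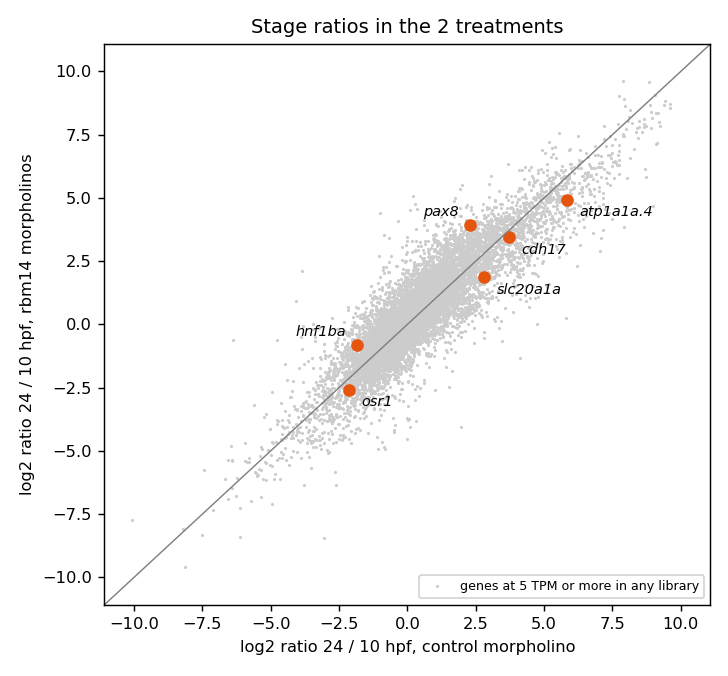
Log2 ratio of 24 over 10 hpf with the control morpholino (x axis) against that with rbm14 morpholinos (y axis), for the 6 pronephros genes that reached 1 TPM (orange) and all genes at 5 TPM or more in any library (grey), with the line of equal ratios. The genes pax8 (2.27 and 3.92) and hnf1ba (−1.84 and −0.83) lie above the line and slc20a1a (2.81 and 1.86) below it.

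At 10 hpf, the end of gastrulation, the comparison asks whether the early kidney regulators differed with the rbm14 morpholinos. Of the 8 genes, the regulators osr1 and hnf1ba reached 5 TPM, and each stood at a similar summed level in the 2 libraries. This does not hold for every regulator of the kidney field. The gene lhx1a, which is not among the 8, had 14.8 TPM in control and 39.4 TPM in rbm14 embryos (3.09-fold higher). The osr1 mRNA had 47.3 TPM in control and 38.0 TPM in rbm14 embryos, and hnf1ba had 26.7 and 24.3 TPM. The log2 ratio was −0.06 for osr1 and 0.11 for hnf1ba, and 59.1% and 45.6% of the genes tested had a higher one. Without rescaling these ratios were −0.31 and −0.14, so the sign of hnf1ba depends on the scaling. With median-of-ratios scaling osr1 had a ratio of 0.02. The remaining 6 genes were under 5 TPM in both libraries. Of these, pax8 was listed at 1.14 and 0.13 TPM (log2 ratio −1.27) and cdh17 at 0.95 and 1.12 TPM (0.33). None of the 8 genes was past the size rule at 10 hpf, where 9.12% of 7321 genes at 5 TPM or more were, 3.57% as higher and 5.56% as lower. With a floor of 1 TPM in place of 5 TPM, pax8 would be past it as lower. The lower 10 hpf value of pax8 is 0.13 TPM, a level at which the files give no measure of how many reads stand behind it.

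At 24 hpf, when the tubules have formed, hnf1ba alone of the members was past the size rule, beside 15.9% of all genes tested. It had 4.89 TPM in control and 17.4 TPM in rbm14 embryos, 2.18-fold higher after scaling and 1.73 on the log2 scale without rescaling. The other tubule and regulator genes at 5 TPM or more lay within 2-fold. The regulator pax8 stood at 5.43 and 10.6 TPM (log2 ratio 0.30), cdh17 at 13.8 and 21.3 TPM (−0.01), atp1a1a.4 at 26.6 and 32.8 TPM (−0.33) and osr1 at 7.11 and 7.61 TPM (−0.51). All of these deposited values were higher in the rbm14 library, and the removed shift of 0.64 is what brings 3 of them to or below 0. Without rescaling the ratios were 0.90 for pax8, 0.61 for cdh17, 0.30 for atp1a1a.4 and 0.09 for osr1, none of them 2-fold. The transporter gene slc20a1a alone had a lower deposited value in the rbm14 library, with 3.19 and 1.59 TPM (−1.34, and −0.82 without rescaling), but it was under 5 TPM.

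Of the 8 genes, 1 was past the size rule as higher at 24 hpf and none as lower, against 7.01% and 8.85% of 9121 genes, 15.9% in all. This count is close to what that share gives for the 5 genes that reached 5 TPM. For hnf1ba, 5.21% of the genes tested had a higher ratio. The median log2 ratio of the 6 members at 1 TPM or more was −0.17, beside 0.08 over all 14909 such genes, and without rescaling these medians were 0.45 and 0.65. The hnf1ba ratio was 0.77 with a pseudocount of 5 TPM, under 2-fold, and between 1.03 and 1.73 under the other settings tried.

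**Figure D3:**
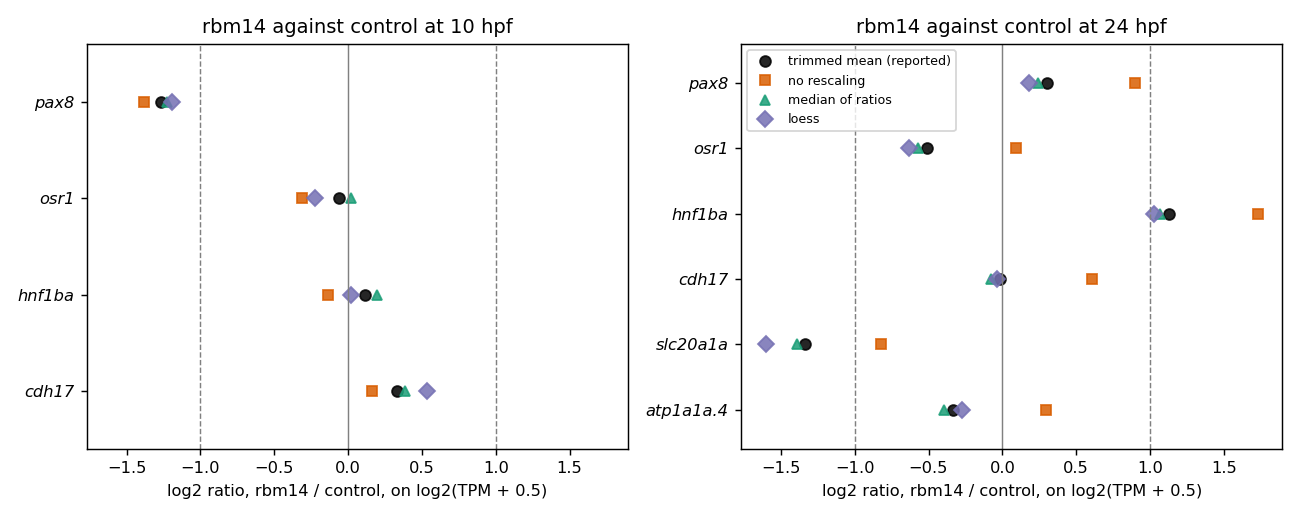
Log2 ratio of rbm14 over control for the genes that reached 1 TPM, at 10 hpf (left) and 24 hpf (right), under 4 ways of scaling the pair of libraries, with dashed lines at 2-fold. At 24 hpf hnf1ba lies beyond the 2-fold line under each scaling (1.03 to 1.73), while osr1, cdh17 and atp1a1a.4 change side of 0 when the pair is not rescaled.

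The podocyte regulators could not be compared. In control embryos wt1a was listed at 0.11 TPM at 10 hpf and 0.28 TPM at 24 hpf, and in rbm14 embryos at 0.10 and 0.81 TPM. Its paralog wt1b was listed at 0.03 and 0.25 TPM in control and at 0 and 0.37 TPM in rbm14 embryos. No fold is given for either, since every value was under 1 TPM. The slit diaphragm gene nphs1, which encodes nephrin of the mature filter, was listed at 0.08 and 0.13 TPM at 24 hpf.

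The total of hnf1ba hides a difference in which of its 2 annotated transcripts was credited. At 10 hpf the control library had 25.3 TPM of ENSDART00000144138 and 1.42 TPM of ENSDART00000160114, and the rbm14 library 14.0 and 10.3 TPM. The share of the second transcript was thus 5.32% in the control and 42.3% in the rbm14 library at an almost equal total. At 24 hpf the same transcripts had 1.81 and 3.08 TPM in the control and 9.22 and 8.16 TPM in the rbm14 library, with a share of the second of 63.0% and 47.0%. Both transcripts were therefore higher in the rbm14 library at 24 hpf, and the more abundant one differed between the libraries. For ENSDART00000144138 alone the log2 ratio of hnf1ba was −0.59 at 10 hpf and 1.54 at 24 hpf.

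Large shifts of this kind were uncommon at 10 hpf. Among 4421 genes with several transcripts, at 5 TPM or more in the higher and 1 TPM or more in the lower library, 2.56% had a largest share difference of at least the 37.0 percentage points of hnf1ba, and the median was 3.51 points. At 24 hpf 20.1% of 5496 genes had one at least as large as its 16.0 points, and 8.59% had a different main transcript. TPM per transcript is an estimate by the authors' tool that can divide shared reads unevenly, and how far that bears on hnf1ba was not tested. Of the other members, slc20a1a was listed with 3 of its 5 transcripts in the 24 hpf control (2.04, 0.66 and 0.49 TPM) and 1 in the rbm14 library (1.59 TPM), and for that main transcript alone the log2 ratio was −0.76 in place of −1.34. The genes pax8, osr1 and wt1a have a single annotated transcript each.

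**Figure D4:**
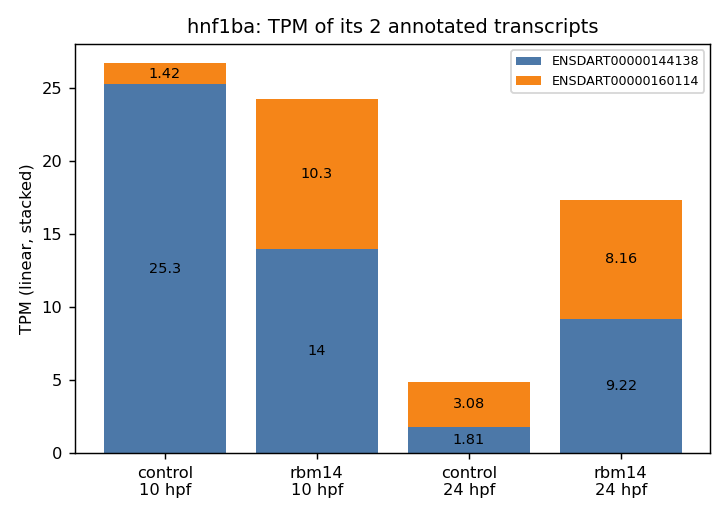
TPM of the 2 annotated hnf1ba transcripts, stacked on a linear axis, in each of the 4 libraries (1 library per bar). ENSDART00000160114 had 1.42 TPM in the 10 hpf control and 10.3 TPM in the 10 hpf rbm14 library, and both transcripts were higher in the rbm14 than in the control library at 24 hpf.

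Paralogs of the members were read in the same way. The paralog hnf1bb, which acts with hnf1ba in tubule segmentation, was near 0 at 10 hpf (0 TPM in control and 0.05 TPM in rbm14 embryos). At 24 hpf it had 0.73 TPM in control and 5 TPM in rbm14 embryos (3.19-fold higher). It was thus past the rule in the same direction as hnf1ba, just at the floor of 5 TPM, and more than 2-fold higher under each scaling. Other pseudocounts were not tried for hnf1bb, whose control value of 0.73 TPM is near the pseudocount of 0.5 TPM. The pax8 relative pax2a, which acts together with pax8 in the kidney field, was likewise near 0 at 10 hpf (0.05 and 0.01 TPM). At 24 hpf it had 4.97 and 10.22 TPM (0.37), close to the pax8 values of 5.43 and 10.6 TPM. The osr1 paralog osr2 stood at 7.76 and 5.27 TPM at 24 hpf (2.16-fold lower, and −0.52 on the log2 scale without rescaling).

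The 5 atp1a1a genes follow one another in the RefSeq annotation of assembly GRCz12tu with no other protein-coding gene between them, and reads may be divided between such similar copies. Their levels did not move together. At 24 hpf atp1a1a.1, the broadly expressed copy, stood at 105.9 TPM in control and 251.6 TPM in rbm14 embryos (log2 ratio 0.61). By contrast atp1a1a.2 stood at 32.4 and 14.0 TPM (3.50-fold lower) and atp1a1a.3 at 9.83 and 4.99 TPM (2.84-fold lower). The ratio of the pronephros member atp1a1a.4 (26.6 and 32.8 TPM) lay between these, and atp1a1a.5 was listed at 0.20 and 0.24 TPM. Without rescaling the lower copies had log2 ratios of −1.18 and −0.91, so that atp1a1a.3 was then under 2-fold. That of atp1a1a.1 was then 1.24, past 2-fold. The phosphate transporter paralog slc20a1b was far more abundant than slc20a1a, at 90.5 and 171.9 TPM (0.28). Its relative slc20a2 stood at 3.30 and 9.09 TPM (0.75, and 1.34 without rescaling). The cdh17 relative cdh16 was listed at 0.04 and 0.14 TPM. In all, 11 of 17 paralogs reached 5 TPM at 24 hpf, of which 1 was past the rule as higher and 3 as lower, beside 7.01% and 8.85% of all genes tested, 15.9% in all. At 10 hpf 2 reached it, slc20a1b (155 and 114 TPM) and atp1a1a.1 (211 and 179 TPM), and neither was past the rule.

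Further genes of the kidney field and its segments were described by role, from lists chosen with earlier results of these data known. Of 22 field and segment regulators, 13 reached 5 TPM in a control library, with 7 past the rule as higher and 5 as lower between the control stages. These counts stand beside 29.6% and 23.1% of all genes tested in that comparison, 52.7% in all, and so do those of the other lists. The iroquois segment regulator irx3b (0.47 and 14.5 TPM at 10 and 24 hpf) was among the higher ones, while hnf4a (44.4 and 2.57 TPM) was lower, as were osr1 and hnf1ba. All 3 podocyte genes that reached 5 TPM were higher, among them mafba (1.97 and 93.8 TPM), which is also made in hindbrain and blood, and podxl (0.56 and 10.3 TPM), which also serves vessels. Of 5 distal tubule and duct genes 3 were higher, including slc12a3 (0.02 and 11.9 TPM) and trpm7, and 2 lower, slc12a1 and gata3. The log2 ratio of trpm7 was 0.81 without rescaling and 0.90 with median-of-ratios scaling, under 2-fold. That of slc12a1 was −0.98 with loess scaling, also under 2-fold. The gene gata3 is counted among the regulators too. Of 3 proximal tubule genes 1 was higher, the water channel gene aqp8b (0.09 and 54.9 TPM), and 1 lower, slc26a1 (68.8 and 15.9 TPM).

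Between the treatments, most genes of the lists at 5 TPM or more were not past the rule, which was also so for all genes (15.9% past it at 24 hpf and 9.12% at 10 hpf). Among the 22 regulators of intermediate mesoderm and nephron segments, 14 reached 5 TPM at 24 hpf. Of these 2 were past the rule as higher, hnf1bb and hnf4a (2.57 and 9.85 TPM, 2.26-fold), 2 as lower, osr2 and the segment regulator irx1a (47.0 and 36.1 TPM, 2.01-fold), and 10 lay between. The ratio of hnf4a was 0.99 with loess scaling and that of irx1a −0.90, so both were then under 2-fold. Without rescaling that of irx1a was −0.38. The list median was −0.04. At 10 hpf 8 reached 5 TPM and 1 was past the rule, lhx1a (14.8 and 39.4 TPM, 3.09-fold higher), a homeobox gene of the kidney field that is also an organizer gene.

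Proximal tubule genes had 16 members, of which 5 reached 5 TPM at 24 hpf. Past the rule were 2 of these, both higher, beside 7.01% of all genes tested as higher (15.9% in all). These 2 were the anion exchanger gene slc4a2a (2.19 and 7.95 TPM, 2.12-fold) and the sulfate transporter gene slc26a1 (15.9 and 64.6 TPM, 2.56-fold). With loess scaling the log2 ratio of slc4a2a was 0.87, under 2-fold. At 10 hpf slc26a1 was more abundant than at 24 hpf, with 68.8 TPM in control and 84.4 TPM in rbm14 embryos. The part of the tubule in the values of these 2 genes was not tested. At 24 hpf the endocytic receptor gene lrp2a had 1 and 2.19 TPM (0.37) and its partner cubn was listed at 0.12 and 0.19 TPM. Of 12 distal tubule and duct genes 5 reached 5 TPM at 24 hpf and none was past the rule. The sodium-chloride cotransporter gene slc12a3, a marker of the late distal tubule, stood at 11.9 and 19.3 TPM (0.06) and the related slc12a1 at 3.34 and 9.23 TPM (0.76). The log2 ratio of slc12a1 was 1.34 without rescaling, past 2-fold.

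The tubule also holds multiciliated cells that move the filtrate. Of 11 matched genes of such cells, 5 reached 5 TPM at 24 hpf and 2 of them were past the rule, both higher, beside 7.01% of all genes tested as higher (15.9% in all). The cilia regulator gene foxj1b stood at 2.58 and 18.6 TPM (4.14-fold higher), and c10h21orf59, the deposited symbol of the ciliary assembly gene cfap298, at 7.56 and 25.8 TPM (2.13-fold). The main cilia regulator gene foxj1a had 3.57 and 7.85 TPM (0.45) and jag2b, a Notch ligand gene that limits the number of these cells, 5.09 and 10.4 TPM (0.36). The list median of 0.64 lay beside 0.08 over all genes at 1 TPM or more. It was 1.25 without rescaling, beside 0.65. These genes serve cilia throughout the embryo, and the part of the tubule in their values was not tested. At 10 hpf foxj1b was also past the rule (2.79 and 5.45 TPM, 2.11-fold), but at 0.85 on the log2 scale without rescaling it was under 2-fold.

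Of 12 genes for tubule junctions and adhesion 10 reached 5 TPM at 24 hpf and none was past the rule. The list median was 0.40, beside 0.08 over all genes at 1 TPM or more. This depends on the scaling, since without rescaling these medians were 1.02 and 0.65. Then cdh1, cldnh, cldnc, cldn15a and tjp1a were past 2-fold as higher (1.02 to 1.18), and the others at 5 TPM or more were not. Among all 9121 genes tested at 24 hpf, 2460 were past 2-fold as higher without rescaling. The genes of this list are epithelial genes also of the skin, such as epcam (226 and 434 TPM, 0.30) and cldnh (92.8 and 192 TPM, 0.41). At 10 hpf cldnb (462 and 780 TPM) was 2.01-fold higher, but its log2 ratio was 0.75 without rescaling and 0.68 with loess scaling, under 2-fold. The sodium pump beta subunit gene atp1b1a stood at 62.9 and 91.0 TPM at 24 hpf (−0.11). Among 12 matched podocyte genes 4 reached 5 TPM at 24 hpf and 1 was past the rule, ptpro (73.7 and 55.8 TPM, 2.05-fold lower), which encodes a receptor phosphatase also made by neurons. It was −0.40 on the log2 scale without rescaling and −0.86 with loess scaling.

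**Figure D5:**
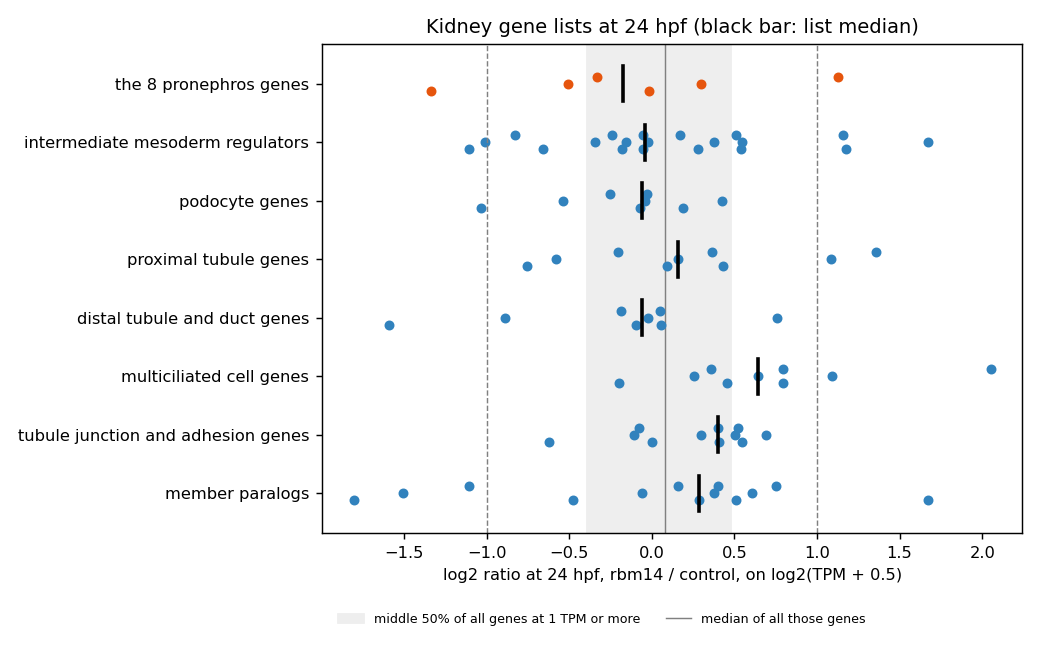
Log2 ratio of rbm14 over control at 24 hpf for each gene at 1 TPM or more, for the 8 pronephros genes (6 shown, orange) and 7 lists (blue), with the list median as a black bar, dashed lines at 2-fold and the middle 50% of all 14909 such genes (−0.39 to 0.48) in grey. Among the pronephros genes hnf1ba (1.13) lies beyond the upper 2-fold line and slc20a1a (−1.34) beyond the lower one.

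Markers of tissues that share these genes were measured beside them. At 24 hpf the summed TPM of 11 endoderm and gut genes was 1105 in the control and 1743 in the rbm14 library. Most of each sum came from fabp2 alone (925 and 1476 TPM), and none of the 7 genes that reached 5 TPM was past the rule. The log2 ratio of foxa3 was 0.43, and 1.06 without rescaling, then past 2-fold. For 9 otic and midbrain-hindbrain genes the sum was 232 and 395 TPM, with 1 of 6 past the rule, foxi1 (37.8 and 122 TPM, 2.07-fold higher). The counts of these lists stand beside 15.9% of all genes tested at 24 hpf, 7.01% as higher. With median-of-ratios scaling the log2 ratio of foxi1 was 0.98, under 2-fold. The summed level of 9 lateral plate genes was 119 and 188 TPM and that of 9 ionocyte genes 154 and 223 TPM, with none past the rule in either at 24 hpf. The ionocyte sum hides members of opposite direction. The gene foxi3a had 54.1 and 112.7 TPM (0.42, and 1.05 without rescaling), whereas foxi3b had 53.6 and 42.4 TPM (−0.97, and −0.33 without rescaling). Ionocytes are skin cells that also carry sodium pumps. The summed levels were higher in the rbm14 library for each of the 4 lists before scaling. So were the levels of hnf1ba, pax8, osr1, cdh17 and atp1a1a.4. This was common across genes: 81.7% of all 14909 genes at 1 TPM or more in either library were higher before scaling. At 10 hpf 2 lateral plate genes reached 5 TPM and 1 was past the rule as higher, lmo2, beside 3.57% of all genes tested. Its log2 ratio was 3.23, and 3.07 without rescaling. In the endoderm, otic and midbrain-hindbrain, and ionocyte lists no gene was past the rule at 10 hpf. The part of these tissues in the members' values was not tested.

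The genes most like each member over the 4 libraries were found from log2(TPM + 0.5) profiles centred on their own mean, as a distance over 4 values. The nearest to hnf1ba were kcnj13 (distance 0.04) and stk40 (0.09), and to osr1 cyba (0.08) and slc38a3b (0.14). Those nearest to pax8 were arpc5b (0.07) and ihhb (0.17), to cdh17 fhl1a (0.01) and filip1a (0.09), to slc20a1a tmem176 (0.13) and bckdhb (0.23), and to atp1a1a.4 hoxc12a (0.22) and krt1-19d (0.28). Because the pseudocount shrinks ratios of low values, a short distance need not mean equal folds. In the 10 hpf control and rbm14 libraries fhl1a had 0 and 0.06 TPM, and cdh17 had 0.95 and 1.12 TPM. There arpc5b had 7.35 and 2.58 TPM, and pax8 had 1.14 and 0.13 TPM. With only 4 libraries such likeness is easily met: 49 of 8072 named genes lay within 0.25 of the hnf1ba profile in every library, 50 within that of cdh17 and 4 within that of atp1a1a.4. The potassium channel gene kcnj13, for example, had 10.6 and 9.88 TPM in the younger and 1.72 and 7.10 TPM in the older pools, following the hnf1ba order at a lower level.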

How the data were processed

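Poly(A) RNA from pools of 50 embryos was sequenced in 4 libraries. The authors deposited TPM for 57596 Ensembl transcripts with gene symbols. The unit was read from the deposited values, which sum to 1000000 TPM per library. HTSeq 0.6.1, HISAT2 2.0.1, Trimmomatic 0.30 and build GRCz10 were used in roles that are not stated, per the submitters' processing notes. Which tool gave TPM, its annotation and its strand setting were not given in the sources used here. Since TPM keeps no depth, precision is unknown.

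Values were summed by symbol (Python 3.11.15, pandas 2.3.3). Pairs of libraries were brought to 1 scale with a trimmed mean of their log2 ratios, unweighted, from genes at 1 TPM or more in both (30% of ratios and 5% of levels trimmed at each end). Then 0.5 TPM was added to each value as a pseudocount. The scaling was run on simulated data with a known uniform shift and few changed genes, as many higher as lower. More genes differed in the real pairs, so that run cannot show which scaling suits them. Lists named 146 genes, of which 137 matched by symbol, 3 by synonym, 5 did not match and 1 was a duplicate. The members and lists were chosen with earlier results of these data known. Genes named are the members, their paralogs (1 of them and 1 podocyte gene are not reported here, although list counts include them), up to 4 list members past the size rule per list and comparison, the 2 genes of nearest profile per member, and a few list genes chosen after their values were seen. Beyond the members, the stage comparison with rbm14 morpholinos is not described. The 8 alternatives changed scaling, pseudocount, floor or the summing of transcripts. Sequences were not used here.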

Additional observations from a re-analysis of the deposited data

Results flagged for a closer look

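The rbm14 over control ratio of pax8 had opposite signs at the stages. It was −1.27 at 10 hpf (1.14 and 0.13 TPM) and 0.30 at 24 hpf (5.43 and 10.6 TPM), a difference of 1.57 on the log2 scale, and the signs were opposite under each setting tried. The size rests on the 0.13 TPM value: with a pseudocount of 5 TPM the ratios were −0.23 and 0.19, a difference of 0.43. That of cdh17 was 0.33 at 10 hpf (0.95 and 1.12 TPM) and −0.01 at 24 hpf (13.8 and 21.3 TPM), a difference of −0.34, and both ratios were above 0 without rescaling. Apart from the scaling, these are the same contrasts of the 4 libraries as the differences of stage ratios given above (1.65 for pax8 and −0.28 for cdh17). They are not a separate result. With 1 library per group neither difference was tested.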

How the results depend on the processing

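No member was past the size rule at 10 hpf except with a floor of 1 TPM (1 member, pax8). At 24 hpf the count of 1 became 0 with a pseudocount of 5 TPM or a floor of 20 TPM, since hnf1ba peaked at 17.4 TPM there, and 2 with a floor of 1 TPM, which adds slc20a1a. Between the control stages the count of 5 became 3 with a floor of 20 TPM and 4 with a pseudocount of 5 TPM, which loses pax8 (0.95). The lower floor admits, and the higher floor leaves out, genes by construction. All other settings kept these counts within 1.5 times. No member past the rule changed sign under any setting. Of the members' ratios under the alternatives, 3 of 32 at 10 hpf and 4 of 48 at 24 hpf had the other sign, all of them under 2-fold. These totals include the changes of floor, which leave each ratio as it was and so could not change a sign. Over all genes, calls at 24 hpf were 639 higher and 807 lower (44.2% higher), and 2460 and 250 (90.8%) without rescaling. At 10 hpf 39.1% of calls were higher, 18.7% without rescaling and 49.3% with median-of-ratios. Between the stages 56.2% were higher in controls and 61.6% with rbm14 morpholinos, and these were 38.2% and 73% without rescaling and 40.9% and 41% with median-of-ratios. Directions of ratios near 0 therefore rest on the scaling. No paired analysis was possible because each group holds 1 library. Depth is unknown, so no precision can be given for values near or under 1 TPM (wt1a, wt1b and the 10 hpf values of pax8, cdh17, slc20a1a and atp1a1a.4).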
